A study of Mus musculus with 6 samples.

Results

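The 36 glycolysis and hypoxia response genes described here were measured in tumor-associated macrophages (TAMs), the macrophages that settle in a tumor. They were chosen by name, as the rows of the count table whose gene symbol was on a list of glycolytic enzymes, their transporters and regulators, and genes that respond to low oxygen. All 36 were found among the 39179 genes of the table. TAMs came from tumors of a Braf V600E-driven mouse melanoma line, grown under the skin of the flank in C57BL/6 hosts 8 weeks old. The Ptgs-competent group carried wildtype tumor cells. In the Ptgs-deficient group the tumor cells had lost both Ptgs1 and Ptgs2 by CRISPR/Cas9 editing, and with them the cyclooxygenases COX-1 and COX-2 that start prostaglandin synthesis. The hosts, and so the sorted macrophages, were of wildtype genotype in both groups. Each group held 3 libraries, each made from a pool of 10 tumors, and live cells were sorted, by the study's methods, as CD45+ CD11b+ F4/80+ NK1.1- Ly6G- and negative or dim for Ly6C. The sample labels list stains for CD45, F4/80, CD11b and Ly6C only. The sources name a deficient line without stating how many edited clones stood behind it, and the day on which TAMs were taken is not stated with the sort. The comparison asked whether the loss of COX in the tumor cells went with another level of these genes in the macrophages around them.

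Glycolysis breaks glucose down to pyruvate. Glucose enters through transporters such as the Slc2a1 product, hexokinases trap it, the phosphofructokinase step commits it, and the later steps make ATP and pyruvate, which lactate dehydrogenase turns to lactate for export. When oxygen is scarce, the prolyl hydroxylases encoded by Egln1 and Egln3 no longer mark HIF-1alpha for degradation, and this transcription factor raises most of the glycolytic enzymes together with genes such as Ddit4, Bnip3, Adm and Ankrd37. Macrophages are known to lean on glycolysis when inflamed and to carry this hypoxia program in poorly supplied parts of tumors.

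HIF binds DNA that contains the letters ACGTG or GCGTG, so these were searched for in the promoter windows of the members (250 bases before to 50 bases after a RefSeq start, build GRCm38.p6, both strands, overlapping matches counted separately, so that CACGTG counts on each strand). RefSeq windows matched 34 of the 36 genes, 47 windows in all, Ero1l under the symbol Ero1a. A match stood in 40 of 47 windows (85.1%) and in 32 of 34 genes. Among the tested genes matched by symbol 63.3% of windows and 69.6% of genes held a match. Among all RefSeq promoters these shares were 43.8% of windows and 46.7% of genes. Members were chosen as genes of these pathways, and the difference in shares was not tested. Windows of 5 members whose values are described in detail are printed 5′ to 3′ on the gene's strand, because these genes had either an unadjusted p under 0.05 or levels that did not overlap between the groups. Capitals mark the matches on either strand. They lie at chr10:59951721-59952020 (minus strand) for Ddit4, chr8:45999801-46000100 (minus) for Ankrd37, chr2:71872974-71873273 (plus, the upstream of 2 starts) for Pdk1, chr12:73907617-73907916 (plus) for Hif1a and chr13:6648722-6649021 (minus) for Pfkp.
Ddit4: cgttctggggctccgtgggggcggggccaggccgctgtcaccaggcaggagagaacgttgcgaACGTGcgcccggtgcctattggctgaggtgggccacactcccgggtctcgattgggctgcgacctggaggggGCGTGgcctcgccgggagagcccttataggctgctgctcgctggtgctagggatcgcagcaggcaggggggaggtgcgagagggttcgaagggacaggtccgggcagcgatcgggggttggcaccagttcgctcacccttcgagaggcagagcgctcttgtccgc
Ankrd37: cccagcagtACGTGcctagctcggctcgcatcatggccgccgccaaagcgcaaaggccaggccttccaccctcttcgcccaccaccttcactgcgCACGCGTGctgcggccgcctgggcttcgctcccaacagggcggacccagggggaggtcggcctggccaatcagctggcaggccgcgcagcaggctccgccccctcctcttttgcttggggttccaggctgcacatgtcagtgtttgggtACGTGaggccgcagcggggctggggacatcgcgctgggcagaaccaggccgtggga
Pdk1: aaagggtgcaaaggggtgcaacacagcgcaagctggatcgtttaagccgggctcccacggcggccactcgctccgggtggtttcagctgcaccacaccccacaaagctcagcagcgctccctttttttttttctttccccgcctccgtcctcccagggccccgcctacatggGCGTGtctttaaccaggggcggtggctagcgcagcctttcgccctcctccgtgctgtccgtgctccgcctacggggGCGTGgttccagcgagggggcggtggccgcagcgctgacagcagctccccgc
Hif1a: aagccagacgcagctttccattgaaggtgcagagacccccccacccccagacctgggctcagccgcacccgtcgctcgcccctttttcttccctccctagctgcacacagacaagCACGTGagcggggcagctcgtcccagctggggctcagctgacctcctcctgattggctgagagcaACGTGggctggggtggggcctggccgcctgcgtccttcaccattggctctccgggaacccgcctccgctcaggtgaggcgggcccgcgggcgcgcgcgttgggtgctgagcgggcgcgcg
Pfkp: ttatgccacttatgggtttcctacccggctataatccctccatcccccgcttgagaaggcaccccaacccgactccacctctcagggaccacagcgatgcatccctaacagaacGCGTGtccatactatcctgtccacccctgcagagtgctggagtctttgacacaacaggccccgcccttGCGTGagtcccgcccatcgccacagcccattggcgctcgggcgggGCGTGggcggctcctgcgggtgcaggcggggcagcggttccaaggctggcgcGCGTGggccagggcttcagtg
The Ddit4 window held 2 matches, Pdk1 2, Hif1a 3, and Ankrd37 and Pfkp 4 each. Tpi1, the remaining gene of this kind, had no match in its window. Genes lower and genes higher in the Ptgs-deficient group thus both carried these letters. A match is a description of the sequence, not of binding.

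Column totals of the 6 libraries ranged from 4431184 to 8760679 counts, with 7794 to 10714 genes detected. Levels are given as CPM, that is, counts divided by the size of the library after TMM scaling. Reads came from the 3′ end of transcripts, so that CPM does not grow with transcript length. Reads shared with copies of a gene could still shift its level against that of other genes. The sorted population carried macrophage markers (12 genes such as Lyz2, C1qa and Csf1r), which summed to 7447 to 19857 CPM in the competent and 25125 to 30521 CPM in the deficient libraries. Of these, Adgre1, Itgam, Fcgr1, Ctss, C1qa, C1qb and C1qc were higher in every deficient library. Csf1r (231 to 1559 against 797 to 1290 CPM), Lyz2, Cd68, Mertk and Ptprc overlapped between the groups. Mertk and Ptprc had lower means in the deficient group. Competent replicate 3 stood apart, with the lowest macrophage sum and the highest sum of 14 tumor or mesenchymal markers (1911 CPM, against 516 and 1092 in the other competent libraries and 65.6 to 104 in the deficient ones). Mitochondrially encoded genes took 6.79% of counts in competent replicate 3 and 4.11% in competent replicate 2, against 1.72% in competent replicate 1 and 2.20 to 2.70% in the deficient libraries. The 6 pigment cell markers in that list were at 0 in every library. Monocyte markers summed to 853 to 2431 CPM against 4540 to 5198 CPM, erythroid to 225 to 698 against 18.2 to 125, neutrophil to 621 to 724 against 452 to 532, and endothelial to 92.9 to 197 against 22.3 to 65.1. F13a1 carried most of the monocyte sum (707 to 1961 against 3686 to 4012 CPM), whereas Vcan of the same list had the opposite direction without overlap (26.6 to 85.2 against 0 to 17.1 CPM). Within the neutrophil list S100a8 and S100a9 had lower means in the deficient group and Retnlg and Csf3r higher ones (Retnlg 32.1 against 139 CPM), and Ly6g was at 0 throughout. Of the 5 endothelial markers 3 were at 0 and Pecam1 held most of the sum. Of 6 platelet markers Ppbp carried nearly all the signal (308 to 972 against 2.07 to 21.0 CPM) and 4 were at 0, while the NK or T cell, B cell and dendritic cell lists stayed at or under 106 CPM. Gm26924, a ribosomal RNA-like row, took 6.83 to 11.6% of competent and 1.82 to 4.63% of deficient counts. The macrophage, tumor or mesenchymal, monocyte, erythroid, neutrophil and endothelial sums, Ppbp and Gm26924 did not overlap between the groups, whereas the NK or T cell, B cell and dendritic cell sums and the mitochondrial share did, and their part in the results was not tested. The marker lists were chosen with earlier results of these data known, so that these gaps are descriptions. In sorted pools, fewer cells of a type and less RNA per cell cannot be told apart. The labels call the libraries separate samples but do not tie them to separate experiments, so that p-values measure the spread between these pools.

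The members did not share a direction. Ddit4 had the lowest p and did not pass adjustment in the main test (1019 ± 321 CPM in competent against 141 ± 129 CPM in deficient TAMs, SD, n = 3 each, edgeR quasi-likelihood FDR 0.111). The filter on low counts kept 34 members. Of these, 20 had a higher and 14 a lower fitted level in the Ptgs-deficient group, a share of 58.8% higher beside 50.7% of all 8793 genes tested. Their median log2 fold change, deficient over competent, was 0.13 (all genes 0.02), it ran from -3.11 to 2.33, and in 23 of 34 it was smaller than 1 in either direction. Calls required an FDR of at most 0.05 and a log2 fold change of at least 1.5 either way. The edgeR quasi-likelihood test called 0 members, where it called 19 of all genes (0.216%). With the same fold limit, the edgeR likelihood ratio test, DESeq2 and limma voom each called 1 of the 34 members, Ddit4, beside 2.74%, 3.83% and 1.40% of all genes with an adjusted p in those fits. An unadjusted p under 0.05 was reached by 3 members (Ddit4, Ankrd37 and Pdk1), which is 8.82% of those tested, beside 8.83% of all genes.

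Levels did not overlap between the groups for 5 members. Pfkp, Tpi1 and Ankrd37 were higher in every deficient library, 8.82% of the members beside 11% of all genes. Ddit4 and Hif1a were lower in every deficient library, 5.88% of the members beside 8.01% of all genes. All these shares lay at or under those of the table as a whole.

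**Figure D1:**
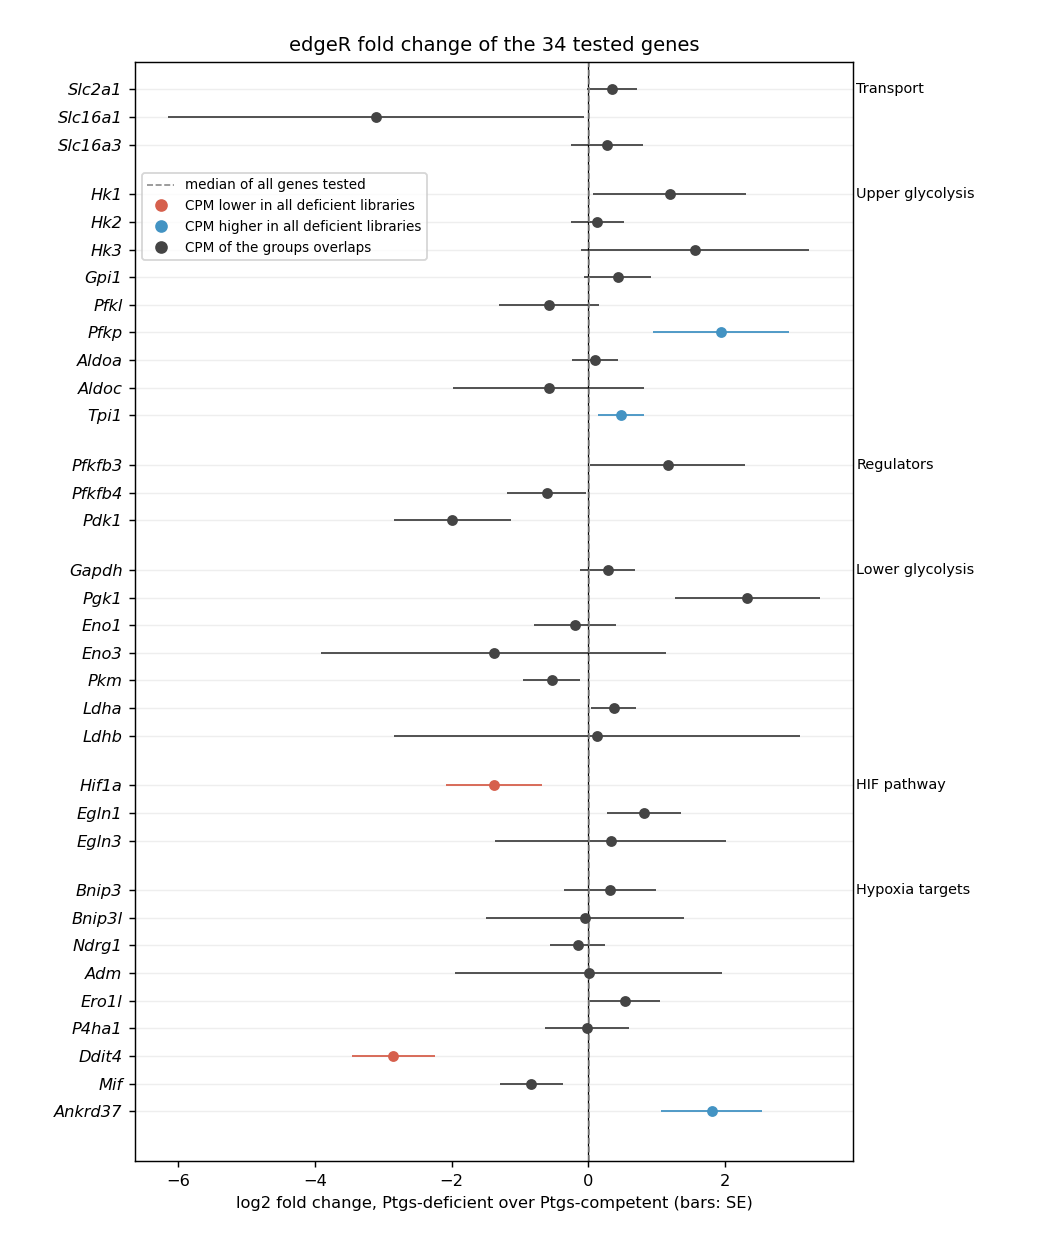
Log2 fold change (Ptgs-deficient over Ptgs-competent, edgeR) of the 34 tested members with its SE, grouped by role; colors mark members whose levels did not overlap between the groups, and the dashed line is the median of all genes tested (0.02). Most points lie within 1 of zero, with Ddit4 at -2.85, Hif1a at -1.38, Pfkp at 1.94 and Ankrd37 at 1.81 among those farther out, and the genes with wide bars are those near 0 counts in some library.

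Among the genes that respond to hypoxia, Ddit4 had the lowest p of all members. Its product (REDD1) restrains the growth kinase mTORC1 under low oxygen, energy stress and glucocorticoids. Ddit4 stood at 1372, 941 and 745 CPM in the competent libraries and at 289, 78.7 and 55.7 CPM in the deficient ones. The groups did not overlap, and the highest deficient library lay far below the lowest competent one. The mean was 1019 ± 321 CPM against 141 ± 129 CPM (SD, n = 3 each). On the log2 scale the fold change came to -2.85 ± 0.61 (SE), and the edgeR quasi-likelihood test gave a p of 0.000844 and an FDR of 0.111. Counts behind these levels ran from 3454 to 8606 in the competent and from 269 to 1584 in the deficient libraries, so that the spread between pools, not counting error, set the precision. FDR was 0.00264 by the edgeR likelihood ratio test and 7.87e-05 by DESeq2, within a range of 7.4e-09 to 0.425 over all alternatives. Without competent replicate 3, the library with few macrophage transcripts, the log2 fold change was -2.99 (edgeR FDR 0.127). Without deficient replicate 1, which held the highest deficient level, it was -3.89 (edgeR FDR 0.0637), and over the 6 libraries left out in turn it ran from -3.89 to -2.47. Ddit4 lies on chromosome 10 at 59949669 to 59951834 (GRCm38).

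Ankrd37, an ankyrin repeat gene that HIF induces, had higher levels in the deficient libraries. It was measured at 30.0, 15.6 and 23.7 CPM in the competent and 83.4, 72.8 and 86.7 CPM in the deficient libraries. The groups did not overlap, and the coefficient of variation was 31.2% among competent and 9.0% among deficient libraries. Its log2 fold change came to 1.81 ± 0.74 (SE). The p of 0.0336 in the edgeR quasi-likelihood test did not pass adjustment (FDR 0.464). Its end on chromosome 8 (45996902 to 46005707) overlaps Ufsp2 on the opposite strand by a short stretch, and whether counting used strand is not stated. Ufsp2 itself had a log2 fold change of -0.02.

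Mif, which encodes the cytokine macrophage migration inhibitory factor, was among the 6 most abundant members. It stood at 521, 476 and 144 CPM in competent TAMs and at 229.9, 197 and 215 CPM in deficient TAMs. Competent replicate 3 fell under all deficient libraries while the other competent libraries lay above them, so that the groups overlapped. The log2 fold change was -0.83 ± 0.46 (edgeR quasi-likelihood p 0.103, FDR 0.789), and -1.17 (FDR 0.208) without competent replicate 3.

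The 6 other hypoxia targets did not separate. Ndrg1, a stress-induced gene, was the steadiest, at 116 to 155 CPM in the competent and 106 to 142 CPM in the deficient group. Bnip3 and Bnip3l, whose products direct mitochondria to autophagy, had log2 fold changes of 0.32 ± 0.68 and -0.05 ± 1.45, and Bnip3l held a count of no more than 3 in competent replicate 2. Ero1l, an oxidase of the endoplasmic reticulum, P4ha1, a subunit of the collagen prolyl hydroxylase, and Adm, the vasodilator adrenomedullin, had log2 fold changes of 0.53 ± 0.52, -0.02 ± 0.62 and 0.01 ± 1.96. Summed over the 9 targets, the level was 2424, 1954 and 1275 CPM in competent and 1155, 835 and 826 CPM in deficient libraries. Without Ddit4 the sums were 1052, 1013 and 530.3 CPM against 866, 756 and 770.2 CPM and the groups overlapped. The difference between the sums lay mostly in Ddit4.

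**Figure D2:**
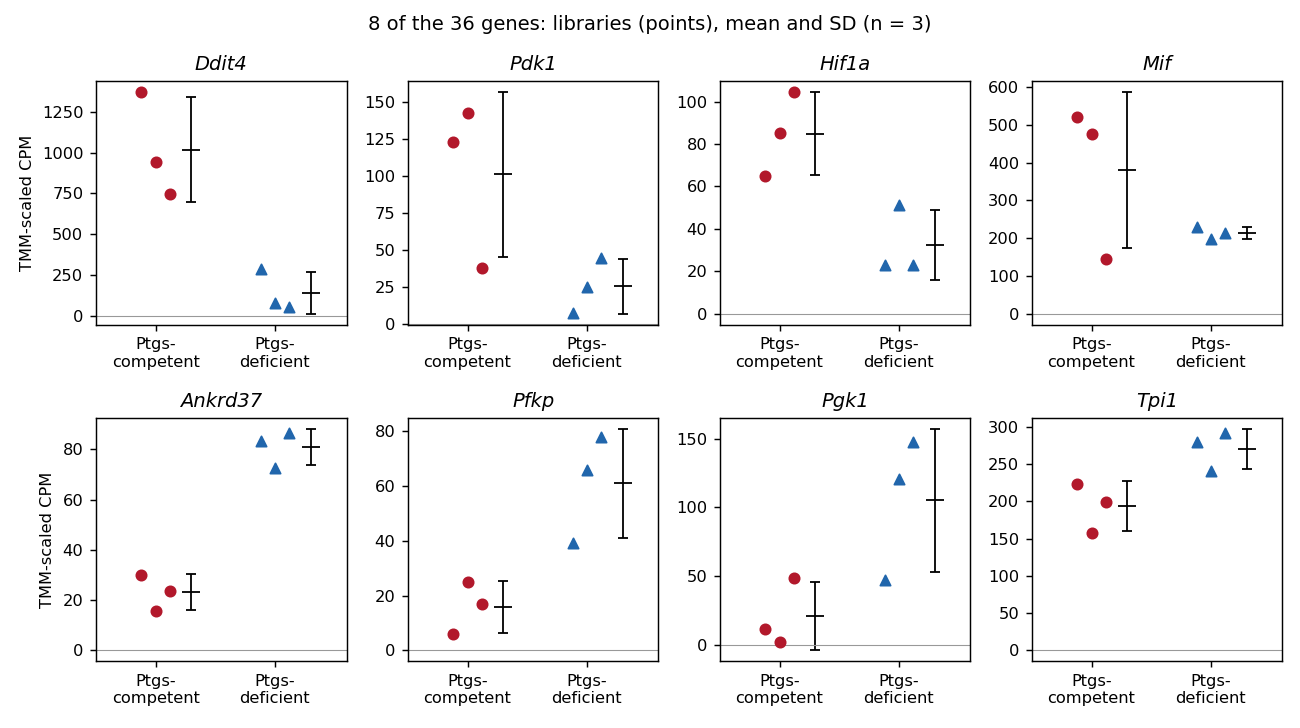
TMM-scaled CPM of 8 members in each of 3 Ptgs-competent (circles) and 3 Ptgs-deficient (triangles) libraries, with the mean and SD (n = 3) beside the points and a separate linear axis for each gene. Ddit4 and Hif1a are lower and Ankrd37, Pfkp and Tpi1 higher in every deficient library, whereas for Pdk1, Mif and Pgk1 at least 1 library crosses into the range of the other group.

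In the oxygen-sensing group, none of Hif1a, Egln1 and Egln3 passed the test. Hif1a, which encodes the oxygen-regulated HIF subunit, stood at 65.0, 85.2 and 104 CPM in competent and at 23.2, 51.4 and 22.8 CPM in deficient TAMs. Levels did not overlap, with a log2 fold change of -1.38 ± 0.70 that did not pass the test (edgeR quasi-likelihood p 0.0763, FDR 0.704). HIF-1alpha is controlled chiefly as a protein, which these data do not measure. Hif1a lies on chromosome 12 (73901375 to 73947530) under the antisense gene Gm15283, which held 0 to 34.9 CPM in the competent and 0 to 11.4 CPM in the deficient libraries. Egln1, the main HIF prolyl hydroxylase, was at 61 to 78.3 CPM against 78.0 to 192 CPM (log2 fold change 0.82 ± 0.54, p 0.16, edgeR). Egln3, a hydroxylase that HIF itself induces, ran from 0 to 56.7 CPM against 8.28 to 71.3 CPM and did not separate the groups.

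Of the 3 regulators of glycolytic flux, none passed adjustment. Pdk1 encodes a kinase that shuts pyruvate dehydrogenase and so keeps pyruvate out of the mitochondria. Its levels were 123, 143 and 37.9 CPM in competent and 7.30, 24.6 and 44.5 CPM in deficient libraries. Competent replicate 3 lay below deficient replicate 3, so that the groups overlapped. The log2 fold change was -1.99 ± 0.85 (edgeR quasi-likelihood p 0.0417, FDR 0.515). It came to -1.52 without deficient replicate 1 and to -2.65 without deficient replicate 3 (edgeR FDR 0.613 and 0.734). Pfkfb3 and Pfkfb4 make and break down fructose 2,6-bisphosphate, the activator of phosphofructokinase. Pfkfb3 ran from 0.862 to 62.5 CPM against 40.6 to 99.99 CPM (log2 fold change 1.16 ± 1.14) and Pfkfb4 from 68.3 to 134 CPM against 43.2 to 71.6 CPM (-0.61 ± 0.58), and neither passed the test. Over all alternatives the log2 fold change of Pfkfb3 ran from 0.65 to 2.16.

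Transporter levels did not differ beyond the spread between libraries. Slc2a1, the glucose transporter GLUT1, was at 121 to 196 CPM in competent and 195 to 219.6 CPM in deficient TAMs (log2 fold change 0.36 ± 0.37). Slc16a3, the lactate exporter MCT4, was at 75.2 to 299.8 CPM against 189 to 382 CPM (0.27 ± 0.53). Slc16a1, which encodes the related transporter MCT1, was at 0 in 3 of 6 libraries and at most 20.7 CPM in the others. Its log2 fold change of -3.11 is the lowest of the list but carries an SE of 3.05.

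Upper glycolysis had 7 of its 9 tested members at a higher fitted level in deficient TAMs (median log2 fold change 0.43), but 0 passed the edgeR quasi-likelihood test and 0 reached an unadjusted p under 0.05. Pfkp, the platelet-type phosphofructokinase, was at 5.90, 24.9 and 16.8 CPM in competent and 39.0, 66.0 and 78.0 CPM in deficient TAMs. Every deficient library exceeded every competent one. The log2 fold change was 1.94 ± 0.997 (edgeR p 0.0801, FDR 0.719), and the gene lies on chromosome 13 (6579768 to 6648777). Tpi1, the triose phosphate isomerase, was at 224, 158 and 199.6 CPM against 279.5, 240.7 and 292 CPM. Its groups also stood apart but by less, a log2 fold change of 0.48 ± 0.34 (p 0.185, FDR 0.94). On the opposite strand its end meets Spsb2, at 34.5 to 73.9 CPM in competent and 1.09 to 42.0 CPM in deficient libraries.

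Hexokinase 2 (Hk2) and aldolase A (Aldoa) had the highest levels of the upper pathway. Hk2 stood at 574, 339.6 and 336 CPM in competent and 652, 417 and 299 CPM in deficient TAMs, a difference (log2 0.13 ± 0.39) smaller than the spread within each group. Aldoa was at 533, 346 and 273 CPM against 447, 401 and 386 CPM, with the deficient libraries inside the competent range (0.10 ± 0.34). Hk1 and Hk3, the other hexokinases, had higher means in the deficient group, with log2 fold changes of 1.195 ± 1.12 and 1.56 ± 1.67, and each was at or near 0 in 1 competent library. With each library left out in turn, Hk1 ran from 0.62 to 2.39 and Hk3 from 0.88 to 2.685. Gpi1, the glucose phosphate isomerase, had 0.43 ± 0.49, Pfkl, the liver-type phosphofructokinase, -0.57 ± 0.73, and the aldolase Aldoc -0.58 ± 1.40. Pfkm, the muscle-type phosphofructokinase, did not pass the filter. It held 59 counts in competent replicate 1, 132 in deficient replicate 2 and 0 in the other 4 libraries. Where it was at 0, the floor of 3 counts allows up to 0.492 to 0.647 CPM, for counting error only.

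Lower glycolysis held the members with the highest means over all 6 libraries, Pkm and Ldha, although Ddit4 exceeded both among competent libraries. Pkm, the pyruvate kinase, was at 1228, 777 and 395 CPM in competent and 431, 647 and 579 CPM in deficient libraries. Both the highest and the lowest of these were competent libraries, and the log2 fold change was -0.53 ± 0.42 (p 0.227, edgeR). Ldha, the lactate dehydrogenase subunit that favors lactate, was at 820.5, 464 and 475 CPM against 657, 786 and 837 CPM (0.37 ± 0.33, p 0.286, edgeR). Competent replicate 1 reached the deficient range. Gapdh, often used as a reference gene, ran from 154 to 274 CPM against 164 to 317 CPM (0.29 ± 0.40), and Eno1, the main enolase, from 44.6 to 149 CPM against 52.2 to 123 CPM (-0.20 ± 0.60). Eno3 and Ldhb, the muscle enolase and the heart-type lactate dehydrogenase subunit, were at 0 in 2 and 3 of the 6 libraries.

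Pgk1, which makes ATP at phosphoglycerate kinase, had the highest log2 fold change of the list and is named after its values were seen. It was at 11.95, 1.81 and 48.9 CPM in competent and 47.3, 120.4 and 148 CPM in deficient TAMs. Deficient replicate 1 fell just under competent replicate 3, and no other pair crossed. The log2 fold change was 2.33 ± 1.06 (edgeR quasi-likelihood p 0.053, FDR 0.58), and it was 3.96 (FDR 0.222) without competent replicate 3. Pgam1, the phosphoglycerate mutase, did not pass the filter, with 90 counts in competent replicate 2 and at most 3 counts in each other library.

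**Figure D3:**
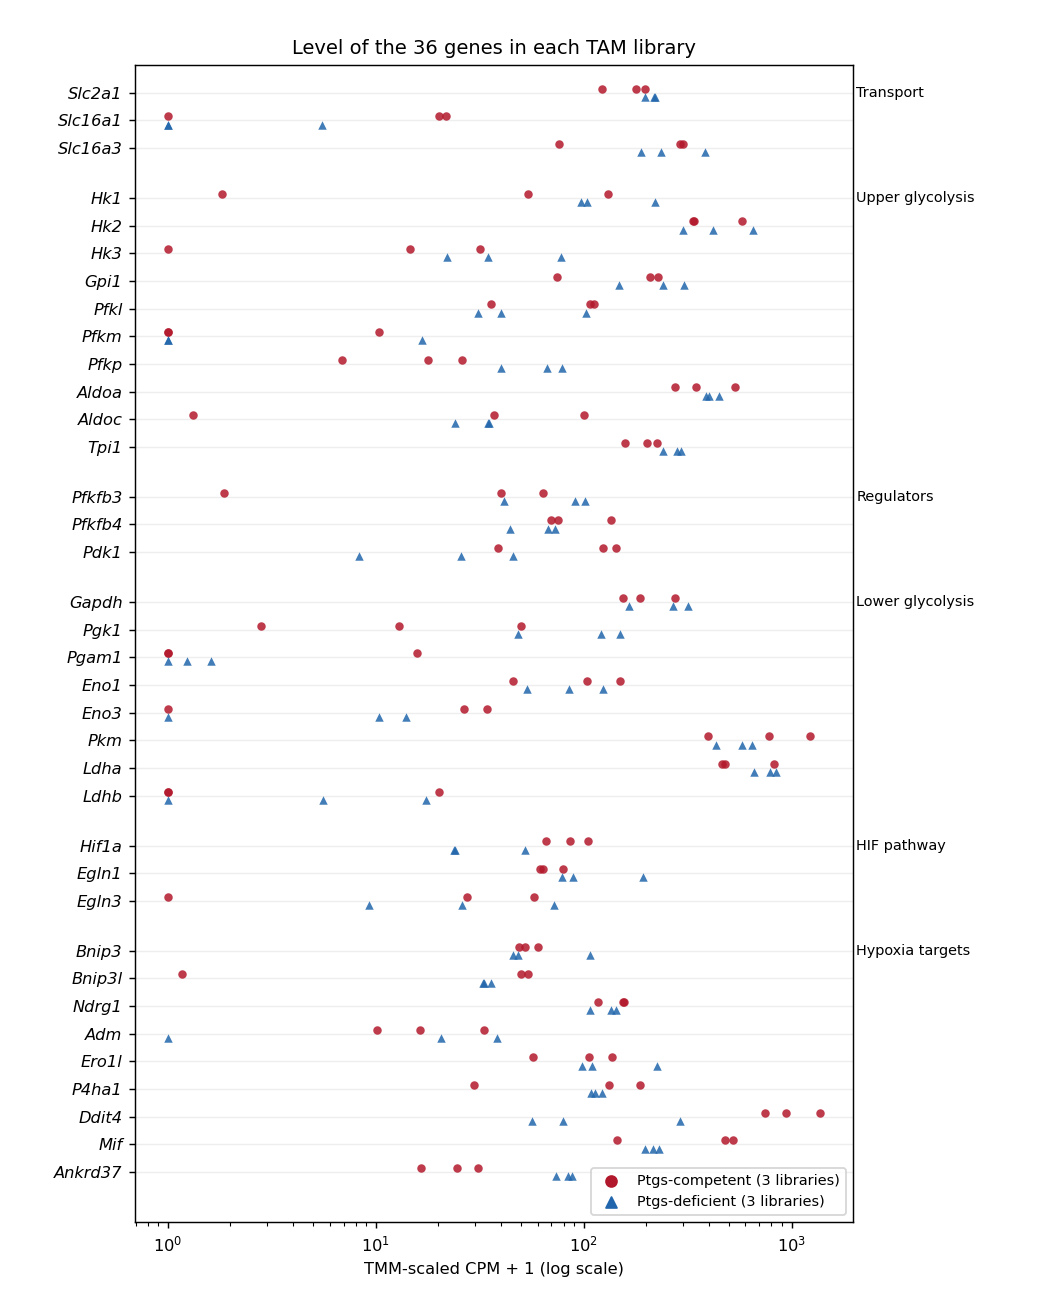
TMM-scaled CPM plus 1 (log axis) of all 36 members in 3 Ptgs-competent (circles) and 3 Ptgs-deficient (triangles) libraries, grouped by role. Pkm and Ldha have the highest means over all 6 libraries and Ddit4 over the competent ones (1019 CPM), and points at the left edge are libraries with a level of 0.

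Some of these genes have near-identical copies or stretches in other genes, which could share or take their reads, since the handling of reads with several alignments is not stated. The last 300 bases of Gapdh matched 134 other genes (at least 95% identity over at least 60 bases), and those in the table held 970 counts beside 8203 for Gapdh. Eno1 matched 5, of which 2 in the table held 1715 counts beside 3249, most of them (1092) in Gm5506. Gpi1 matched 2 with 983 counts beside 7530, of which 848 were those of Dleu2, a separate long noncoding gene on chromosome 14 and no copy of Gpi1. Adding Gm5506 alone to Eno1 gave a log2 fold change of 0.002. Mif matched 3 with 333 counts beside 10788, whereas the copies of Ldha, Pkm and Bnip3 held 0 counts in the table.

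Within enzyme families, the mix of isoforms is free of library scaling. Hk2 took 80.1, 91.5 and 86.4% of hexokinase counts in competent TAMs and 72.0, 69.8 and 71.9% in deficient TAMs. Competent replicate 1 was the nearest to the deficient group, at 80.1% (95% Clopper-Pearson interval 78.9 to 81.2%), beside 72.0% (70.7 to 73.2%) in deficient replicate 1. The shares did not overlap, with means of 85.97 ± 5.72% and 71.2 ± 1.22% (SD, n = 3 each). An exact two-sided permutation test gave p = 0.1, the smallest that 3 against 3 libraries allow, and 0.52 after Benjamini-Hochberg adjustment over 13 shares, so that this design could not reach 0.05. Hk1 made up 21.6 ± 3.75% in deficient TAMs against 10.6 ± 9.28%, and it exceeded Hk3 in every library but competent replicate 2 (0.221% Hk1, 8.31% Hk3). Without that library the difference in the Hk1 share fell from 10.9 to 5.73 points, and with any library left out the Hk2 difference ran from -17.7 to -12.0 points.

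Phosphofructokinase shares overlapped but differed more in size. Pfkl took 87.9, 81.0 and 67.4% of the family's counts in competent and 72.1, 32.2 and 27.8% in deficient libraries, over 239 to 1012 family counts. Pfkp took 4.65, 19.0 and 32.6% against 27.9, 54.7 and 72.2% (exact permutation p = 0.2, adjusted 0.52), with 95% Clopper-Pearson intervals of 3.30 to 6.36% for the lowest and 68.2 to 76.0% for the highest. Pfkl was thus the leading isoform in all competent libraries and in deficient replicate 1, and Pfkp in the other deficient libraries. Pfkfb3 took 22.6, 47.8 and 1.15% of counts of the Pfkfb3 and Pfkfb4 pair in competent and 69.8, 57.3 and 36.2% in deficient TAMs (exact permutation p = 0.2, adjusted 0.52), a difference of 30.6 points, or 19.2 without competent replicate 3. Egln1 shares overlapped widely, 58.0 to 100% against 55.2 to 90.4%. Ldha took at least 96.1% of lactate dehydrogenase counts in every library, and Aldoa at least 84.3% of aldolase counts. Intervals cover counting error only, since reads copied by PCR could not be told apart.

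**Figure D4:**
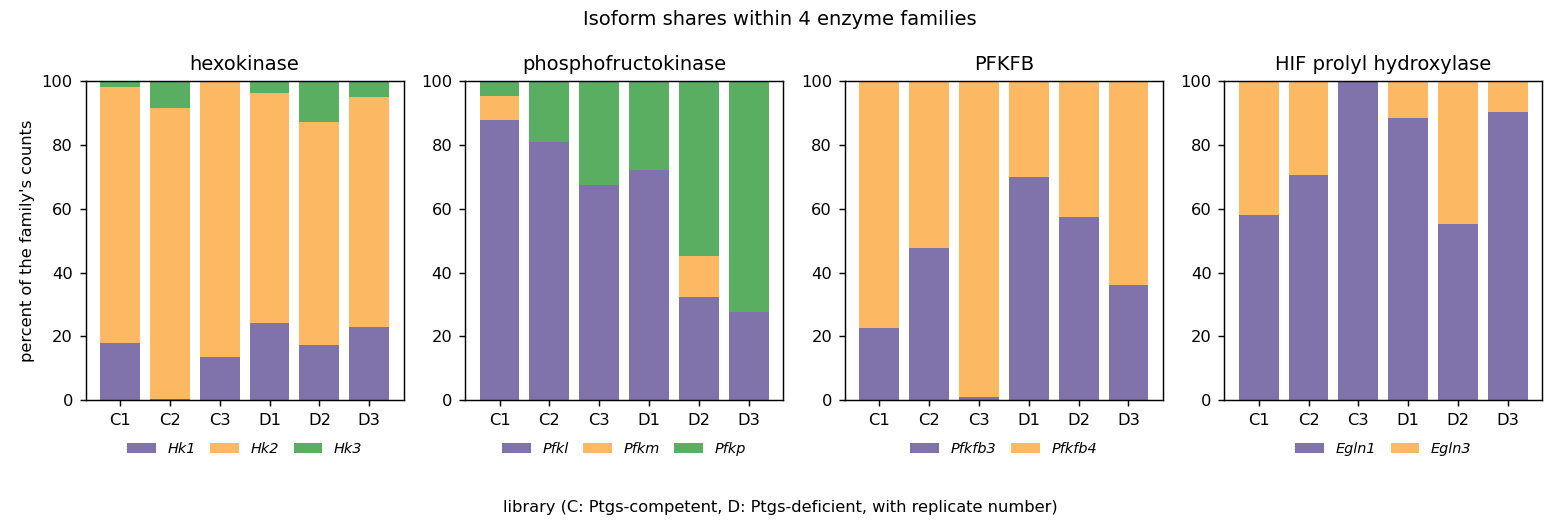
Percent of each family's counts held by its isoforms in the 6 libraries (C, Ptgs-competent; D, Ptgs-deficient), as stacked bars for hexokinase, phosphofructokinase, the Pfkfb pair and the HIF prolyl hydroxylases. Hk2 holds 80.1 to 91.5% in C and 69.8 to 72.0% in D libraries, and the Pfkp segment widens to 54.7 and 72.2% in D2 and D3.

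Taken as a sum, the 36 members held 7754, 5610 and 4102 CPM in competent and 5432, 5295 and 4995 CPM in deficient libraries, which is 0.43 to 0.735% of a library's counts. All deficient sums lay inside the competent range. The difference of the means, -582 CPM, turned to 385 CPM without competent replicate 1 and came to -1441 CPM without competent replicate 3. With Ddit4 set aside the means were 4803 ± 1517 CPM and 5099 ± 144 CPM (SD, n = 3 each), and competent pools were more spread out than deficient ones. The median coefficient of variation of the tested members was 52.5% among competent and 40.3% among deficient libraries, beside 81.4% and 55.9% for all genes tested. Competent replicate 1 held the highest level of 10 of the 34 tested members, and competent replicate 3 the lowest level of 11. Competent replicate 2 was also credited with the lowest level of 11, where ties went to the first library. That count includes Slc16a1 and Eno3, at 0 in deficient replicate 1 as well. It leaves out Ldhb, where competent replicate 2 shared a level of 0 with competent replicate 1 and deficient replicate 2. Of the 36 members, 10 were at 3 counts or fewer in at least 1 library.

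Other genes of the same pathways were read from the same fit. A list of 65 (further glycolytic genes, further hypoxia genes, and the pyruvate and pentose phosphate genes) was found in full, 41 passed the filter, and 11 were at 0 in every library. Of the 41, 21 were higher and 20 lower in the deficient group, with a median log2 fold change of 0.16. The edgeR quasi-likelihood test called 0 of them, the likelihood ratio test, DESeq2 and limma voom also called 0, and 1 (2.44%) had an unadjusted p under 0.05, beside 8.83% of all genes. That gene was Kdm4b, a histone demethylase that HIF induces, with at most 2 counts in any competent library and 6.41 to 16.6 CPM in the deficient ones, at least 20.2-fold higher against the floor of 3 counts per library (FDR 0.556). It passed the filter through the deficient group, where it is high, so that its p is a description. The bound covers counting error only, whereas Pgam1 went from 0 to 90 counts within the competent group.

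Fam162a, a HIF target of the mitochondria, was at 231, 209 and 241 CPM in competent and 426, 402 and 281 CPM in deficient TAMs, without overlap (log2 fold change 0.70 ± 0.33, edgeR p 0.0562, FDR 0.603). Hilpda, a lipid droplet gene that hypoxia induces, ranged from 668 to 1146 CPM against 335 to 738 CPM (-0.76 ± 0.38, FDR 0.69). Jmjd6 had a log2 fold change of -1.26 ± 0.65 (FDR 0.73). Groups stood apart for 6 of the 41 with the deficient libraries higher (14.6%, beside 11% of all genes) and for 0 with them lower (beside 8.01%). Plod2, a collagen-modifying enzyme of the same list that the filter removed, and named after its values were seen, held 11, 324 and 78 counts in competent and 0, 2 and 0 in deficient libraries, at least 47.0-fold lower against the floor of 3 counts per library. Competent replicate 2 held most of these counts, and without it the bound was 18.3-fold. These bounds, like that of Kdm4b, cover counting error only and not the spread between pools. In the pentose phosphate pathway, the transaldolase Taldo1 and the transketolase Tkt had log2 fold changes of -0.80 ± 0.42 and -0.58 ± 0.38, and the rate-limiting dehydrogenase G6pdx -0.81 ± 1.0. The pyruvate carrier subunit Mpc2 had 1.46 ± 1.47. Further glycolytic genes (Bpgm, Tigar, Adpgk and Pfkfb2) were each at 0 in 2 or more libraries and had SEs of 2.60 to 2.87.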

How the data were processed

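Libraries were made with a QuantSeq 3′ FWD kit from 800 pg of total RNA of sorted TAMs. The authors trimmed the reads with BBDUK, fqtrim and cutadapt, aligned them to GRCm38 with STAR, assigned them to the v86 annotation with featureCounts, and deposited raw counts per gene in a single table. Versions of these tools, strandedness in counting and the treatment of multiply aligned reads are not given in the sources used here.

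From these counts, low genes were removed with filterByExpr, default settings (minimum count 10, minimum total 15), leaving 8793 of 39179. Libraries were scaled by TMM and the groups compared with the quasi-likelihood test of edgeR 4.0.16 in R 4.3.3, two-sided, with Benjamini-Hochberg adjustment over all genes tested. The limits on FDR and fold change follow the study, where the edgeR model is a GLM whose form of test is left unstated, so that the main test here may differ from it. SEs were derived from the fold change and the F statistic. Isoform shares were compared by exact permutation tests in scipy 1.17.1. Alternatives were the edgeR likelihood ratio test, DESeq2 1.42.0, voom with sample quality weights (limma 3.58.1), other scalings and filters, a replicate block, and each library left out. The fits were tested on simulated data. Library sizes after TMM scaling put the floor of 3 counts at 0.357 to 0.647 CPM.

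The members, the gene lists and the marker lists were chosen with earlier results of these data known. Values in every library are given for members that were called, had an unadjusted p under 0.05 or did not overlap, for the 6 most abundant, and for those that left the filter. Of the other pathway lists, up to 4 genes each with the smallest p are named. Gene positions come from GENCODE M21 (GRCm38, whole gene) and promoter windows from RefSeq (GRCm38.p6). A table of proteins was not used here.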

Additional observations from a re-analysis of the deposited data

How the results depend on the processing

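The count of members called was 0 by the edgeR quasi-likelihood test and 1, Ddit4 each time, by the likelihood ratio test, DESeq2, voom with quality weights, without a filter on low counts, and with a replicate block. It stayed at 0 under the other scalings, the stricter filter, without Gm26924 and the mitochondrial genes (chosen after seeing the data) and with any library left out. Of the other pathway genes, 1 (Txnip, a glucose-responsive brake on glucose uptake, named after its values were seen) was called without a filter. Calls over all genes numbered 19, and 241, 328, 123, 252 and 77 under those 5 alternatives, and 0 to 25 with a library left out. Replicate numbers did not pair the libraries (correlations of -0.049 to -0.022 between same-numbered libraries), so that the block, with an FDR of 0.00097 for Ddit4, is given here alone. Over 16 settings 22 of 34 members kept their direction. Voom moved the median of all genes to 0.39, the block to 0.26, and leaving out competent replicate 1 or 3 to 0.14 or 0.13. The median of the members then was 0.30, 0.34, 0.43 and 0.002. The cause was not tested.

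Log2 fold changes turned for 12 members. Under voom, Hk2 was -0.14, Aldoc 1.25, Eno1 0.19, Eno3 0.22, Bnip3l 1.82, Adm -0.30 and P4ha1 0.18. With the block, Aldoc was 0.57, Bnip3l 0.86, Adm -1.38 and P4ha1 0.31. Adm was -0.064 with DESeq2, -0.064 with RLE scaling and -0.075 with library totals, and P4ha1 was 0.022 with upper quartile scaling. Eno1 summed with Gm5506, also chosen after seeing the data, was 0.0024. With each library left out, Slc16a3 ran from -0.089 to 0.55, Hk2 from -0.19 to 0.44, Aldoa from -0.05 to 0.41, Aldoc from -1.16 to 0.73, Eno1 from -0.54 to 0.23, Ldhb from -1.48 to 8.47, Egln3 from -0.74 to 1.40, Bnip3 from -0.20 to 0.56, Bnip3l from -0.63 to 0.42, Adm from -0.94 to 0.64, P4ha1 from -0.42 to 0.51, Adpgk from -4.09 to 1.45 and Pfkfb2 from -0.0089 to 8.51. At 3 counts or fewer, which 10 of the 36 members had in some library, a level could not be told from 0.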
